A study of Homo sapiens with 12 samples.

Results

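The 10 genes described here encode B cell identity transcription factors: SPIB, SPI1, PAX5, EBF1, POU2AF1, POU2F2, BACH2, MEF2C, IKZF1 and IRF8. They were read through every probe set of the array whose annotation gives exactly 1 gene symbol, that symbol being one of the 10. This gave 33 probe sets of the 41091 with 1 symbol, and 10 genes of 19775. IKZF1 had 9 probe sets, POU2F2 7, EBF1 4, MEF2C 3, SPIB, PAX5, POU2AF1 and BACH2 2 each, and SPI1 and IRF8 1 each. Total RNA of OCI-Ly7 and Pfeiffer, cell lines from human diffuse large B-cell lymphoma of the GCB (germinal centre) class, was hybridised to 12 Affymetrix U133 Plus 2.0 arrays. The 4 groups had 3 arrays each: OCI-Ly7 with non-target control siRNA, OCI-Ly7 with siRNA against BCL6, Pfeiffer with its non-target control, and Pfeiffer with siRNA against BCL6, all taken 48 h after transient transfection. Titles of the Pfeiffer controls say NTshRNA where their descriptions say siRNA, so the kind of oligonucleotide in that control group is not settled. Every change in Pfeiffer and every difference between the lines uses that control group. Any part of a differing kind of oligonucleotide in these values cannot be told apart from that of BCL6 siRNA. The labels speak of triplicates but do not say whether the cultures were separate. Each p-value thus rests on the spread within groups of 3 samples that may differ only technically, pooled over the 4 groups. In these bulk samples, fewer cells of a type and less RNA per cell cannot be told apart.

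As background, EBF1 and PAX5 commit lymphoid progenitors to the B lineage and switch on genes of the B cell receptor. SPI1, which encodes PU.1, and its relative SPIB are Ets family factors, while POU2F2 (OCT2) binds the octamer motif of immunoglobulin promoters together with its coactivator POU2AF1 (OBF1). BACH2 is a repressor that holds back plasma cell differentiation, MEF2C acts downstream of the B cell receptor, IRF8 supports the germinal centre programme, and IKZF1 (IKAROS) is a zinc finger regulator of lymphoid development. BCL6, the target of the siRNA, is a repressor that maintains the germinal centre state.

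Values are log2(signal + 16) of the deposited MAS5 signals, and a change is BCL6 siRNA minus control on that scale. The constant 16 damps the noise of dim probe sets and understates their changes. A probe set or gene is called where limma's p-value, adjusted by Benjamini-Hochberg over all 41091 probe sets, was under 0.05, and a gene is counted by its brightest probe set. The correlation between arrays was 0.967 to 0.972 within a group and 0.866 to 0.874 across the lines. BCL6 itself, by its brightest probe set, stood at 74.6% of control in OCI-Ly7 (-0.42 ± 0.08 SE, adjusted p = 0.0217) and at 51.3% in Pfeiffer (-0.96 ± 0.08 SE, adjusted p = 1.77e-06). Of the 3 BCL6 probe sets, the one of middle brightness was called in both lines. It stood at 71.3% of control in OCI-Ly7 (-0.49 ± 0.08 SE, adjusted p = 0.0132). In Pfeiffer it stood at 40.9% (-1.29 ± 0.08 SE, adjusted p = 1.85e-07). The dimmest of the 3 was called in Pfeiffer (-0.97) but not in OCI-Ly7 (-0.17, adjusted p = 0.574). The OCI-Ly7 call of the brightest did not survive leaving out any single array of that line (adjusted p up to 0.287 over all settings tried). Of 9 B cell markers all 9 lay above the median level of all probe sets (6.78) in the controls of both lines. Of 7 T cell markers only CD3E did in OCI-Ly7 (6.92 in controls) and only CD8A in Pfeiffer (13.57 in controls), and of 8 myeloid markers at most 2 did in any group.

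In Pfeiffer, BCL6 siRNA was followed by lower signals of SPIB, POU2F2, PAX5 and IRF8 and by a higher signal of POU2AF1. In OCI-Ly7 none of the 10 factors was called. Of the 33 probe sets, 8 fell and 1 rose in Pfeiffer, where 2.44% of all probe sets were called lower and 2.37% higher. That is 27.3% of the member probe sets in either direction, against 4.81% of all probe sets and 9.18% of those with a mean above the median, where 30 of the 33 lie. Counted as genes, 4 of 10 fell and 1 rose, against 3.05% and 2.86% of all genes. The median change of the 33 probe sets in Pfeiffer was -0.26, against 0.02 for all probe sets. In OCI-Ly7 limma called 0 of the 33, against 0.455% of all probe sets, and 3 had an unadjusted p under 0.05. Their median change in OCI-Ly7 was -0.11, against -0.01 for all. No overlap between siRNA and control arrays was seen for 13 probe sets lower and 1 higher in Pfeiffer, against 9.72% and 10.4% of all probe sets. In OCI-Ly7 this held for 9 lower and 7 higher, against 8% and 7.55%. The difference between the lines (Pfeiffer change minus OCI-Ly7 change) was called for 5 probe sets, all lower, against 1.3% of all. Without limma's trend of variance with level, the Pfeiffer calls of PAX5, POU2AF1, IRF8 and POU2F2 228343_at were lost (adjusted p = 0.0615 to 0.173), as was that of POU2F2 229750_at, and those of SPIB and of POU2F2 227749_at and 235661_at held.

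**Figure D1:**
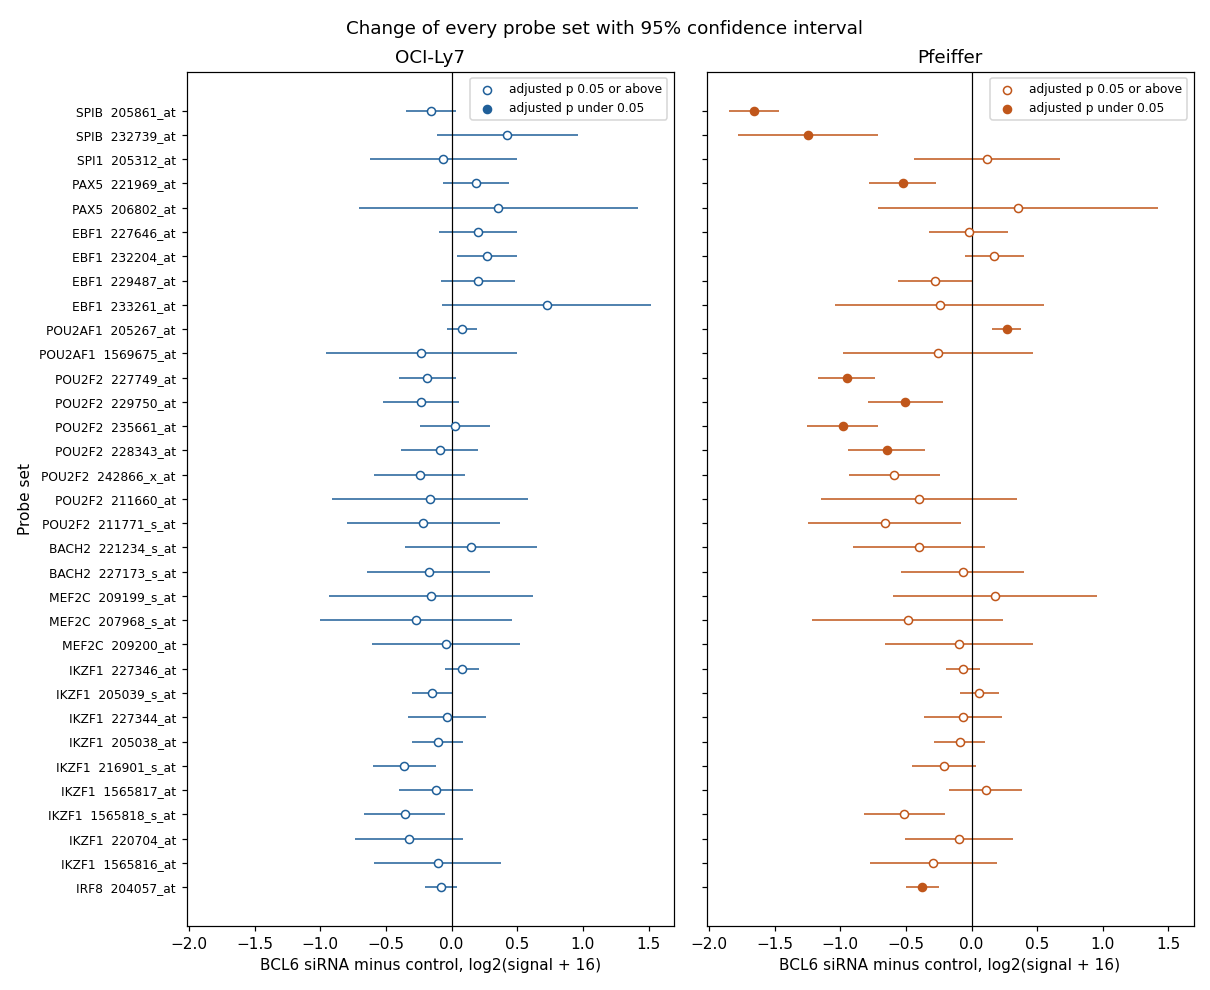
Change of each of the 33 probe sets after BCL6 siRNA in OCI-Ly7 and in Pfeiffer, on the log2(signal + 16) scale, with 95% confidence intervals from limma; filled points were called. The 9 filled points all stand in the Pfeiffer panel, with SPIB and POU2F2 farthest to the left and POU2AF1 alone to the right of 0.

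Promoter sequences were available for 8 of the 10 genes, in 17 windows that run from 250 bases before to 50 after an annotated start (RefSeq, GRCh38.p14). SPI1 and POU2AF1 had no entry. The windows were searched on both strands for the octamer ATGCAAAT, bound by POU2F2 with POU2AF1, the PU box core GAGGAAGT, bound by PU.1 and SPIB, and a BCL6 core TTCCTNGAA. The octamer was in 1 of the 17 windows, at a MEF2C start, and in 1.77% of all 35116 windows. Neither the PU box core nor the BCL6 core was in any of the 17, against 2.59% and 1.56% of all windows. A search for the letters TATAAA, added after the values were seen, found 3 windows of SPIB, PAX5 and IKZF1, against 11.5% of all. These are matches of letters and not measured binding. The 250 bases before the start are shown for SPIB and POU2F2, the genes with the deepest falls, and for the MEF2C start with the octamer. They are given 5′ to 3′ on the gene's strand with matches in capitals: TATAAA 29 bases before the SPIB start, no match for POU2F2, and the octamer on the reverse strand 60 bases before the MEF2C start. The regions are chr19:50418688-50418937 (plus strand), chr19:42132447-42132696 (minus strand) and chr5:88824345-88824594 (minus strand).
SPIB: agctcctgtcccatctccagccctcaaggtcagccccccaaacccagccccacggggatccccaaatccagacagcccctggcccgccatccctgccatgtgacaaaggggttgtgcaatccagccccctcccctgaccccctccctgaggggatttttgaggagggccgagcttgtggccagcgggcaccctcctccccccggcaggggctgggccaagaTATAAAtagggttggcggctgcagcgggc
POU2F2: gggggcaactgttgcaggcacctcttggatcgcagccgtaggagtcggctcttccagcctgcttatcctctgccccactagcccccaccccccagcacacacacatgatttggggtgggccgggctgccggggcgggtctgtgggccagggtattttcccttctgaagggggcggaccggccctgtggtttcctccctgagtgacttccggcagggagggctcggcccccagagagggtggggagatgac
MEF2C: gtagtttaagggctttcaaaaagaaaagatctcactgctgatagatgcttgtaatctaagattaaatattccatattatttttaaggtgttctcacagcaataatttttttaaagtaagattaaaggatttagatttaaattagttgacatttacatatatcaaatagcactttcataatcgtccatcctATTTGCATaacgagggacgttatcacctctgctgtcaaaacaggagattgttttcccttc

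SPIB had the deepest fall of the 10 genes. Its brightest probe set, 205861_at, read 11.09, 11.03 and 11.32 in Pfeiffer controls and 9.46, 9.38 and 9.62 after BCL6 siRNA. The siRNA arrays all lay well below the controls, and the gap between the groups was larger than the spread within either. The means were 11.14 ± 0.15 and 9.48 ± 0.12 (SD, n = 3 each), a change of -1.66 ± 0.09 (SE) that left 31.6% of the control signal (95% confidence interval 27.7% to 36.1%, adjusted p = 4.44e-08). In OCI-Ly7 it read 11.15, 11.38 and 11.18 on control and 11.10, 11.11 and 11.04 on siRNA arrays. These siRNA arrays also lay below all 3 controls, but by little, and the change of -0.15 ± 0.09 was not called (adjusted p = 0.663). The difference between the lines was -1.51 ± 0.13 (adjusted p = 9.13e-06).

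The dimmer SPIB probe set, 232739_at, read 8.57, 8.07 and 8.53 on Pfeiffer controls and 6.58, 7.43 and 7.41 on siRNA arrays. The groups did not overlap, and it too fell, by -1.25 ± 0.25 (SE) or to 42.1% of control (adjusted p = 0.00788). In OCI-Ly7 it read 7.21, 6.97 and 7.33 on control and 7.51, 7.52 and 7.75 on siRNA arrays, a change of 0.42 ± 0.25 that was not called (adjusted p = 0.674). Its difference between the lines, -1.67 ± 0.35, was called (adjusted p = 0.0194). That call was lost without OCI-Ly7 control replicate 2, OCI-Ly7 siRNA replicate 3, Pfeiffer control replicate 1 or Pfeiffer control replicate 3, where adjusted p rose to at most 0.0608. Both SPIB calls in Pfeiffer held in all 21 settings tried at the level of probe sets.

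SPI1, the gene of PU.1, did not follow SPIB. Its only probe set, 205312_at, read 7.27, 7.99 and 7.95 on Pfeiffer controls and 7.32, 8.14 and 8.11 on siRNA arrays. The groups overlapped, with a change of 0.12 ± 0.26 (SE, 95% confidence interval -0.44 to 0.68, adjusted p = 0.911). In OCI-Ly7 it read 8.96, 8.70 and 8.24 on control and 8.36, 8.46 and 8.89 on siRNA arrays, also overlapping, with a change of -0.06 ± 0.26 (interval -0.62 to 0.49, adjusted p = 0.978). With 3 arrays a group, SPI1 changes of the sizes inside these intervals are not excluded.

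**Figure D2:**
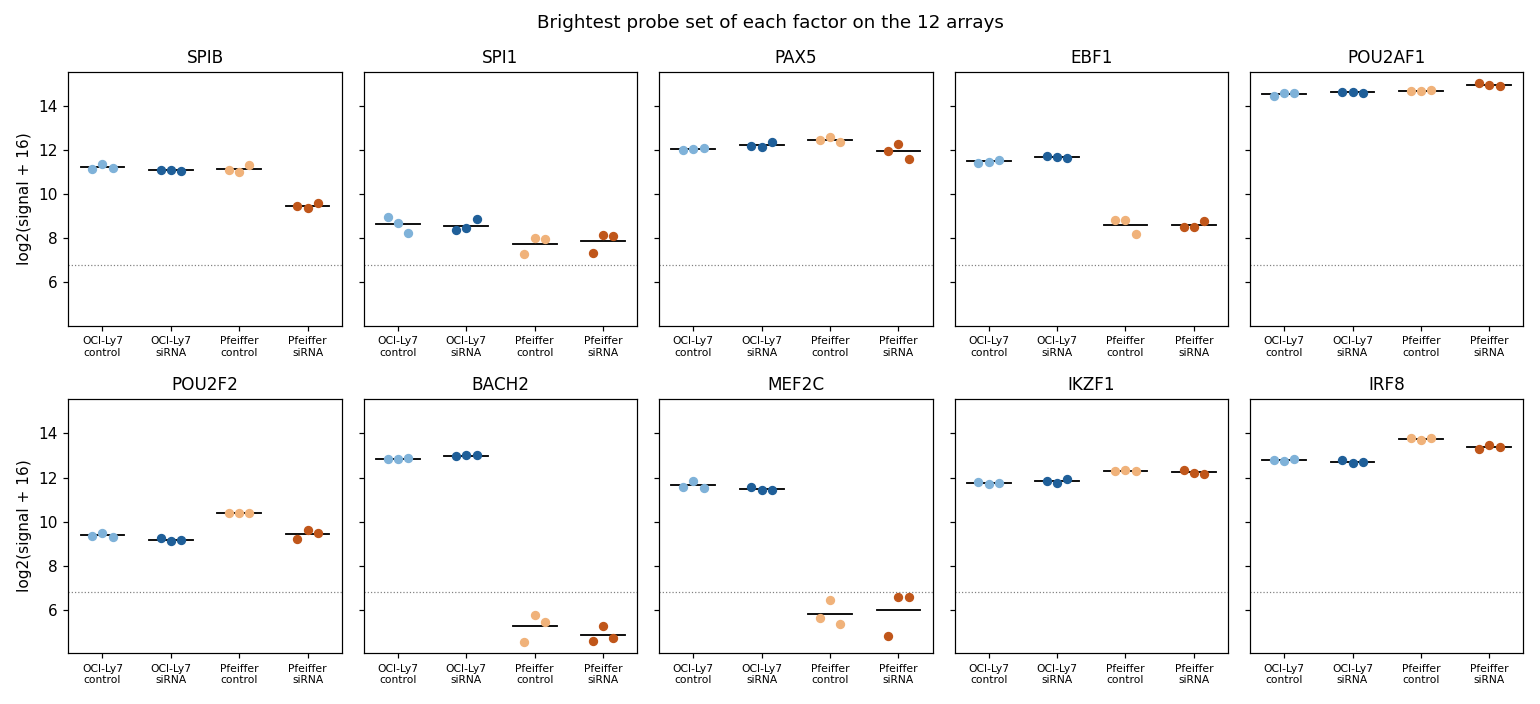
Level of the brightest probe set of each of the 10 genes on the 12 arrays, as log2(signal + 16); points are arrays, bars are means of 3 arrays, and the dotted line is the median level of all probe sets (6.78). Pfeiffer siRNA arrays of SPIB (9.38 to 9.62) lie below its controls (11.03 to 11.32), while BACH2 and MEF2C lie under the dotted line on every Pfeiffer array.

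PAX5 fell in Pfeiffer by its bright probe set. This probe set, 221969_at, read 12.45, 12.61 and 12.38 on Pfeiffer controls and 11.97, 12.27 and 11.62 on siRNA arrays. All siRNA arrays lay below all controls, but they were spread more widely (SD 0.32 against 0.12). The change was -0.53 ± 0.12 (SE), which left 69.5% of the control signal (interval 58.3% to 82.8%, adjusted p = 0.0173). The call was lost without Pfeiffer control replicate 1 (adjusted p = 0.0513) or Pfeiffer control replicate 2 (adjusted p = 0.0824), and with the Pfeiffer arrays fitted alone (adjusted p = 0.0762). In OCI-Ly7 the same probe set read 12.03, 12.05 and 12.11 on control and 12.21, 12.16 and 12.38 on siRNA arrays. There the siRNA arrays lay above all controls, by 0.18 ± 0.12, which was not called (adjusted p = 0.713). The lines differed by -0.71 ± 0.17 (adjusted p = 0.0369), a call lost on leaving out any 1 of 9 of the 12 arrays (adjusted p up to 0.104). The second PAX5 probe set, 206802_at, was dim, with group means of 4.69 to 5.55, and changed by 0.36 ± 0.50 in OCI-Ly7 and 0.35 ± 0.50 in Pfeiffer (adjusted p = 0.916 and 0.834).

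EBF1, the partner of PAX5 in B lineage commitment, had no probe set called after BCL6 siRNA in either line. Its brightest, 227646_at, read 11.43, 11.48 and 11.56 on OCI-Ly7 control and 11.74, 11.69 and 11.65 on siRNA arrays. The siRNA arrays lay above the controls by 0.20 ± 0.14 (SE, adjusted p = 0.745, and 0.201 at its lowest over the settings). That SE pools both lines, and this probe set had SDs of 0.07 and 0.05 in OCI-Ly7 but 0.39 and 0.15 in Pfeiffer (control and siRNA). In Pfeiffer it read 8.85, 8.85 and 8.18 on control and 8.52, 8.53 and 8.78 on siRNA arrays, which overlapped (-0.02 ± 0.14, adjusted p = 0.976). The other 3 probe sets changed by 0.27 (232204_at), 0.20 (229487_at) and 0.73 (233261_at) in OCI-Ly7 and by 0.17, -0.28 and -0.24 in Pfeiffer. All 4 were thus above 0 in OCI-Ly7, and 232204_at had an unadjusted p of 0.0224, but none passed after adjustment (adjusted p = 0.425 to 0.745).

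POU2F2, which encodes the octamer factor OCT2, fell in Pfeiffer across several probe sets. The brightest, 227749_at, read 10.39, 10.37 and 10.40 on Pfeiffer controls and 9.21, 9.61 and 9.49 on siRNA arrays. The controls were nearly identical and every siRNA array lay far below them. The change was -0.95 ± 0.10 (SE), leaving 51.8% of the control signal (interval 44.6% to 60.2%, adjusted p = 3.89e-05). Probe set 235661_at read 9.74, 9.82 and 9.75 on controls and 8.91, 8.78 and 8.68 on siRNA arrays, and left 50.6% (-0.98 ± 0.13, adjusted p = 0.000191). Probe set 228343_at read 9.52, 9.58 and 9.57 on controls and 8.87, 8.84 and 9.02 on siRNA arrays, and left 63.9% (-0.65 ± 0.14, adjusted p = 0.0118). For each of these 3, every siRNA array lay below every control.

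Probe set 229750_at of POU2F2 read 9.81, 9.59 and 10.13 on Pfeiffer controls and 9.47, 9.42 and 9.13 on siRNA arrays. It passed narrowly (-0.50 ± 0.14, adjusted p = 0.0452) and was called in 6 of 21 settings. Leaving out any 1 array ended the call except for OCI-Ly7 control replicate 1 and Pfeiffer control replicate 2 (adjusted p up to 0.2). The other 3 POU2F2 probe sets changed by -0.59 (242866_x_at, adjusted p = 0.0509, and 0.0274 at its lowest over the settings), -0.66 (211771_s_at, adjusted p = 0.236) and -0.40 (211660_at, adjusted p = 0.68). In OCI-Ly7 the 7 changes lay between -0.24 and 0.02 and none was called. The brightest read 9.34, 9.47 and 9.29 there on control and 9.27, 9.11 and 9.17 on siRNA arrays, a change of -0.19 ± 0.10 (adjusted p = 0.633). The difference between lines was called for 227749_at (-0.76 ± 0.14, adjusted p = 0.009) and 235661_at (-1.01 ± 0.18, adjusted p = 0.00611). Both calls were lost without limma's variance trend (adjusted p = 0.0912 and 0.0595). For the other 5 probe sets the difference lay between -0.55 and -0.23 and was not called.

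POU2AF1, the coactivator of OCT2, moved the other way. Its bright probe set, 205267_at, read 14.70, 14.70 and 14.72 on Pfeiffer controls and 15.04, 14.95 and 14.93 on siRNA arrays. Every siRNA array lay above every control, and the change of 0.27 ± 0.05 (SE) put it at 120.3% of control (interval 111.2% to 130.2%, adjusted p = 0.00774). In OCI-Ly7 it read 14.47, 14.61 and 14.61 on control and 14.64, 14.66 and 14.62 on siRNA arrays. These arrays lay just above the controls, by 0.08 ± 0.05 (adjusted p = 0.726), and the difference between lines of 0.19 ± 0.08 was not called (adjusted p = 0.285). The other probe set, 1569675_at, did not show the rise: it changed by -0.26 ± 0.34 in Pfeiffer (adjusted p = 0.82) and by -0.23 ± 0.34 in OCI-Ly7 (adjusted p = 0.921). With the mean of both probe sets POU2AF1 stood at 0.01 in Pfeiffer (adjusted p = 0.994).

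IRF8 fell in Pfeiffer by a small step that stood clear of its spread. Its only probe set, 204057_at, read 13.78, 13.70 and 13.78 on controls and 13.29, 13.47 and 13.37 on siRNA arrays. The groups did not overlap. The change of -0.38 ± 0.06 (SE) left 77.1% of the control signal (interval 70.8% to 84.0%, adjusted p = 0.00103). In OCI-Ly7 it read 12.79, 12.76 and 12.83 on control and 12.80, 12.65 and 12.69 on siRNA arrays, which overlapped (-0.08 ± 0.06, adjusted p = 0.763). The difference between lines, -0.30 ± 0.08, was not called (adjusted p = 0.0824), so IRF8 is not shown to differ between them.

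BACH2 and MEF2C were bright in OCI-Ly7 and dim in Pfeiffer. BACH2 by 221234_s_at read 12.84, 12.82 and 12.87 on OCI-Ly7 control and 12.96, 13.01 and 13.00 on siRNA arrays. The siRNA arrays lay above the controls by 0.15 ± 0.24 (SE), which was not called (adjusted p = 0.929). By 227173_s_at it read 12.13, 11.98 and 11.96 on control and 11.74, 11.91 and 11.90 on siRNA arrays, which lay below the controls (-0.17 ± 0.22, adjusted p = 0.905). The 2 BACH2 probe sets thus went opposite ways in OCI-Ly7. In Pfeiffer every BACH2 reading lay between 4.55 and 5.97, under the median level of all probe sets. Changes there were -0.40 ± 0.24 (adjusted p = 0.47) and -0.07 ± 0.22 (adjusted p = 0.947). Without Pfeiffer control replicate 1, the lowest of the 221234_s_at controls, the first became -0.76 (adjusted p = 0.0227).

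MEF2C by 209199_s_at read 11.57, 11.82 and 11.54 on OCI-Ly7 control and 11.56, 11.45 and 11.44 on siRNA arrays, which overlapped (-0.16 ± 0.36 SE, adjusted p = 0.956). Its other probe sets changed by -0.27 (207968_s_at) and -0.04 (209200_at) there. In Pfeiffer the 3 probe sets had group means of 4.54 to 5.98 and changed by 0.18, -0.49 and -0.09, none called (adjusted p = 0.571 to 0.934). These dim values moved with single arrays. With each array left out in turn the change of 209199_s_at ran from -0.12 to 0.77, the highest without Pfeiffer siRNA replicate 1 (adjusted p = 0.0794). Without that same array 207968_s_at stood at -1.01 and was called (adjusted p = 0.0251). One spread was estimated over both lines, and the brightest EBF1, BACH2 and MEF2C probe sets spread more widely in Pfeiffer than in OCI-Ly7. Their SEs for OCI-Ly7 thus include the wider Pfeiffer spread.

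IKZF1, the lymphoid regulator IKAROS, had none of its 9 probe sets called after BCL6 siRNA in either line. The brightest, 227346_at, read 12.27, 12.34 and 12.31 on Pfeiffer controls and 12.35, 12.23 and 12.16 on siRNA arrays. In OCI-Ly7 it read 11.79, 11.71 and 11.76 on control and 11.83, 11.75 and 11.91 on siRNA arrays. Both pairs of groups overlapped, with changes of -0.06 ± 0.06 (SE, interval -0.19 to 0.07) and 0.08 ± 0.06 (interval -0.05 to 0.21). The other 8 were 205039_s_at, 227344_at, 205038_at, 216901_s_at, 1565817_at, 1565818_s_at, 220704_at and 1565816_at. In that order they changed by -0.15, -0.03, -0.11, -0.36, -0.12, -0.36, -0.33 and -0.11 in OCI-Ly7 and by 0.06, -0.06, -0.09, -0.21, 0.11, -0.51, -0.09 and -0.29 in Pfeiffer. Farthest below 0 in Pfeiffer was 1565818_s_at, which read 8.92, 9.34 and 9.02 on Pfeiffer controls and 8.82, 8.53 and 8.40 on siRNA arrays without overlap (adjusted p = 0.058, and 0.0316 at its lowest over the settings). In OCI-Ly7 it had an unadjusted p of 0.0255 and 216901_s_at one of 0.00623, and neither passed after adjustment (adjusted p = 0.442 and 0.249). The probe set 1565816_at was dim in every group (4.24 to 4.54).

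On the control arrays, also taken 48 h after transfection, the lines differed in most of these factors. The kind of oligonucleotide in the Pfeiffer controls is not settled, so any part of it cannot be told apart from that of the line. Between control arrays 26 of 33 probe sets were called, 16 higher and 10 lower in Pfeiffer. That is 78.8%, against 40.5% of all probe sets and 67.6% of those above the median level, and all 26 lie among the 30 above that level. Counted as genes, 9 of 10 were called, against 44.4% of all genes. By direction, 19.2% of all probe sets were higher and 21.3% lower in Pfeiffer. BACH2 stood 7.58 ± 0.24 (SE) log2 units lower in Pfeiffer by 221234_s_at, which is 192-fold on this scale, and the other probe set stood 94.6-fold lower. MEF2C stood 57.2-fold lower by its brightest probe set, and 10.0-fold and 34.4-fold by the others. EBF1 stood 7.29-fold lower by its brightest probe set (11.49 ± 0.07 against 8.63 ± 0.39, SD, n = 3 each), and 6.56-fold and 2.71-fold by 2 others, while the dim 233261_at was not called (adjusted p = 0.271). SPI1 stood 1.86-fold lower (adjusted p = 0.0111), a call lost when replicate 1 of the OCI-Ly7 controls (adjusted p = 0.0628) or of the Pfeiffer controls (adjusted p = 0.0667) was left out. Because the Pfeiffer levels of BACH2 and MEF2C are dim, their folds depend on the constant added. The BACH2 difference of -7.58 became -8.43 with 1 in place of 16 and -6.40 with 64, and that of MEF2C, -5.84, became -6.31 and -4.95.

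Higher in Pfeiffer controls were IRF8 (1.94-fold, 13.75 ± 0.04 against 12.79 ± 0.03, SD, n = 3 each), POU2F2 (2.03-fold by its brightest probe set, with 5 of 7 called) and IKZF1 (1.47-fold, with 7 of 9 called). PAX5 was 1.33-fold higher by its bright probe set (adjusted p = 0.01; 0.0531 without Pfeiffer control replicate 2). POU2AF1 was split: 205267_at stood 1.11-fold higher (adjusted p = 0.0414), a call lost in 9 of 20 settings. Among these, the replicate block refers to replicate 1 of each line (0.22) and not to the group means (0.14), so it tests another difference. The other probe set, 1569675_at, stood lower. It read 8.96, 8.89 and 8.84 on OCI-Ly7 controls and 4.93, 5.45 and 5.73 on Pfeiffer controls. The Pfeiffer signals, 14.5 to 37.0, lie near the constant of 16 and are not shown to be above background, so the difference of -3.53 ± 0.34 (SE) has no firm size. SPIB was split as well. Its bright probe set stood 1.07-fold lower and was not called (adjusted p = 0.461), while 232739_at was 2.33-fold higher (adjusted p = 0.000795). After BCL6 siRNA the brightest POU2F2 probe set read 9.21 to 9.61 in Pfeiffer, close to the 9.29 to 9.47 of OCI-Ly7 controls, while SPIB at 9.38 to 9.62 lay below the 11.15 to 11.38 of OCI-Ly7 controls. IRF8 at 13.29 to 13.47 stayed above the 12.76 to 12.83 of OCI-Ly7 controls.

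**Figure D3:**
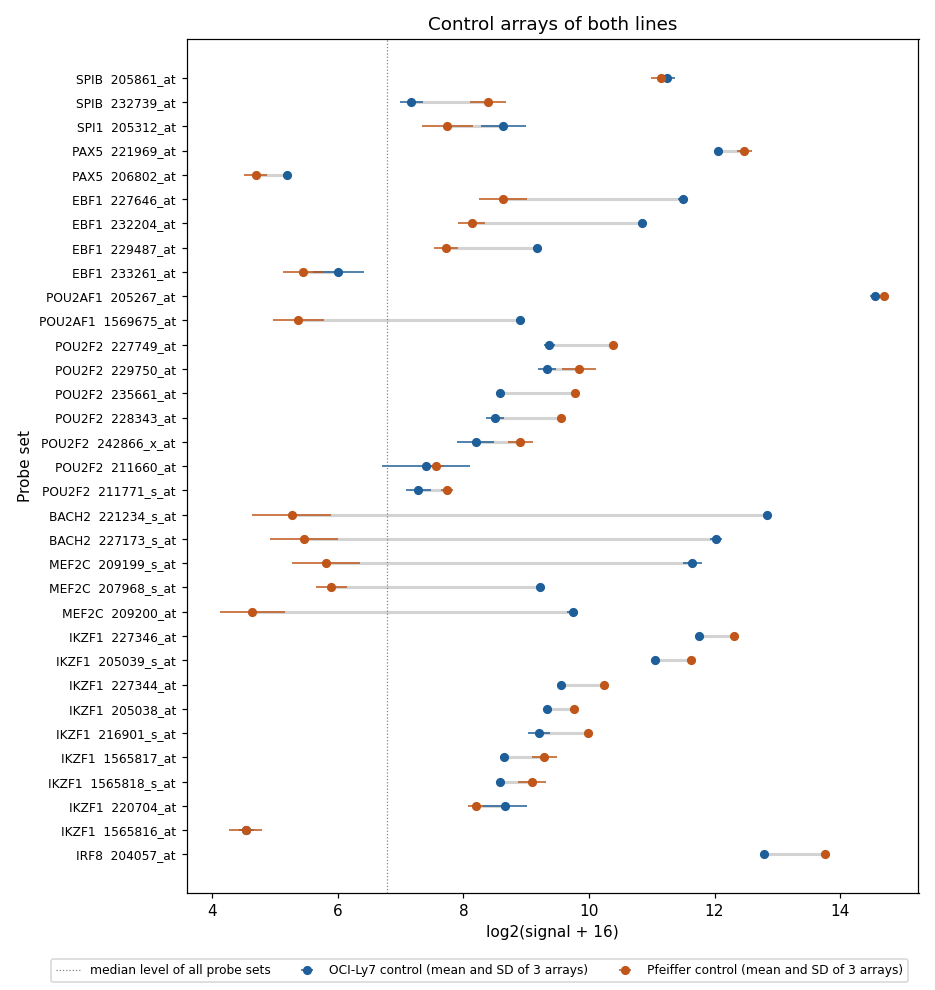
Control levels of the 33 probe sets in OCI-Ly7 and Pfeiffer as log2(signal + 16), points being means and bars SDs of 3 arrays; the dotted line is the median level of all probe sets. BACH2 (12.84 against 5.26) and MEF2C (11.65 against 5.81) have the widest gaps, and levels of different probe sets are not comparable with each other.

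Related factors showed a mixed picture. Of 17 relatives and partners of the 10 genes, 3 rose and 3 fell in Pfeiffer, against 2.86% and 3.05% of all genes, with a median of -0.09. In OCI-Ly7 1 rose and 0 fell, against 0.369% and 0.268% of all genes, with a median of 0.07. Another 2 of the list, MEF2B and POU2F1, were not analysed here. In Pfeiffer FLI1, an Ets factor, rose by 0.61 ± 0.07 (SE, adjusted p = 5.13e-05), and IRF4, a factor of plasma cell differentiation related to IRF8, rose by 0.82 ± 0.10 (adjusted p = 0.000103). IKZF3 (AIOLOS), a relative of IKZF1, fell by -0.53 ± 0.07 (adjusted p = 0.000283). The other 3 called were MEF2A (0.48), the E protein TCF3 (-0.30) and IKZF2 (-0.94), named after their values were seen; IKZF2 passed narrowly (adjusted p = 0.0491) and in 5 of 21 settings. ID3, an inhibitor of E proteins, rose in OCI-Ly7 by 0.40 ± 0.07 (adjusted p = 0.013), which was lost without OCI-Ly7 control replicate 1 or 2 or siRNA replicate 1 or 2, without the variance trend and with the replicate block (adjusted p up to 0.243 over all 20 settings). ID2 (0.25, adjusted p = 0.142) and the Ets factor ELF1 (-0.23, adjusted p = 0.294) did not pass there.

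Of 12 measured genes that PAX5 and EBF1 are known to activate, 4 fell and 0 rose in Pfeiffer, against 3.05% and 2.86% of all genes, and 8 were not called. In OCI-Ly7 2 rose and 0 fell, against 0.369% and 0.268% of all genes, and 10 were not called. Their medians were -0.42 in Pfeiffer and 0.17 in OCI-Ly7, against 0.01 and 0.00 for all genes. Without the variance trend 2 were still called lower in Pfeiffer and 0 were called in OCI-Ly7. CD79B, which carries signals of the B cell receptor, rose by 0.38 ± 0.05 (SE) in OCI-Ly7 (adjusted p = 0.00151) and fell by -0.72 ± 0.05 in Pfeiffer (adjusted p = 2.53e-07). CD79A, its partner chain, rose by 0.36 ± 0.07 in OCI-Ly7 (adjusted p = 0.0469), a call lost without any 1 of the 6 OCI-Ly7 arrays, and stood at -0.11 in Pfeiffer (adjusted p = 0.563). The inhibitory receptor CD22 fell by -0.97 ± 0.12 in Pfeiffer (adjusted p = 0.00017), as did MS4A1, which encodes CD20 (-0.39 ± 0.06, adjusted p = 0.00136), and the kinase BLK (-0.42 ± 0.08, adjusted p = 0.00586), the last named after its value was seen. The difference between lines was called for 4 of the 12, all lower, against 1.73% of all genes:  CD79A (-0.46), CD79B (-1.10), CD22 (-1.13) and MS4A1 (-0.56). The CD79A difference lost its call in 11 of 19 settings, and those of CD22 (adjusted p = 0.0654) and MS4A1 (adjusted p = 0.118) were lost without the variance trend. That setting also ended the calls of CD79B in OCI-Ly7 (adjusted p = 0.185) and of MS4A1 and BLK in Pfeiffer (adjusted p = 0.0739 and at most 0.0767). Beside this, 5 of 9 B cell markers fell in Pfeiffer, against 3.05% of all genes; 4 of them, CD79B, MS4A1, CD22 and BLK, are the genes just given, and the fifth is CD37. The summed level of the 9 markers was 97.7 to 97.8 on Pfeiffer controls and 92.4 to 93.3 on siRNA arrays.

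Of 11 measured genes that PU.1 and SPIB are known to activate, 2 fell and 0 rose in Pfeiffer (18.2%, against 3.05% of all genes called lower), with a median of -0.10 against 0.01 for all genes. They were the kinase SYK (-0.49 ± 0.05 SE, adjusted p = 5.7e-05) and MS4A1, which stands in both lists. NFKB1, an NF-kB subunit, stood at -0.21 (adjusted p = 0.0781). In OCI-Ly7 limma called 0 of the 11, with SYK at 0.24 (adjusted p = 0.078), NFKB1 at -0.26 (adjusted p = 0.0948) and the costimulatory receptor CD40 at 0.16 (adjusted p = 0.393). At an unadjusted p of 0.05 these 3 and MS4A1 passed there.

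Of 11 genes that PAX5 or BACH2 is known to repress, 2 rose and 0 fell in Pfeiffer, where 2.86% of all genes were called higher. In OCI-Ly7 1 rose and 0 fell, where 0.369% were called higher. The medians were -0.01 and 0.04. PRDM1, the gene of BLIMP1, a driver of plasma cell differentiation that BACH2 represses, rose by 1.40 ± 0.10 (SE) in Pfeiffer (adjusted p = 8.45e-07). BACH2 was dim in Pfeiffer on control and siRNA arrays alike and was not called there. The part of BACH2, or of the fall of BCL6 itself, in the PRDM1 rise was not tested. In OCI-Ly7 PRDM1 stood at 0.47 ± 0.10 (adjusted p = 0.0633). XBP1, a regulator of secretion that PAX5 represses, rose by 0.50 ± 0.06 in OCI-Ly7 (adjusted p = 0.000727, and 0.12 without the variance trend) and by 0.44 ± 0.06 in Pfeiffer (adjusted p = 0.000227). CSF1R (0.95, adjusted p = 0.235 in Pfeiffer) and NOTCH1 (-0.31, adjusted p = 0.585 in OCI-Ly7) did not pass. Beside the falls of SPIB, POU2F2, PAX5 and IRF8 in Pfeiffer, 2 of 7 plasma cell markers were called higher and 0 lower, against 2.86% of all genes higher, and they are PRDM1 and XBP1 again. In OCI-Ly7, where none of the 10 factors was called, 2 of the 7 were called higher as well, XBP1 and TNFRSF17 (0.78 ± 0.08 SE, adjusted p = 0.000256), against 0.369% of all genes. The summed level of the 7 was 82.2 to 83.8 on Pfeiffer controls and 85.4 to 86.7 on siRNA arrays. In OCI-Ly7 it was 68.5 to 73.0 on controls and 73.0 to 73.6 on siRNA arrays. The part of these genes in the result was not tested.

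**Figure D4:**
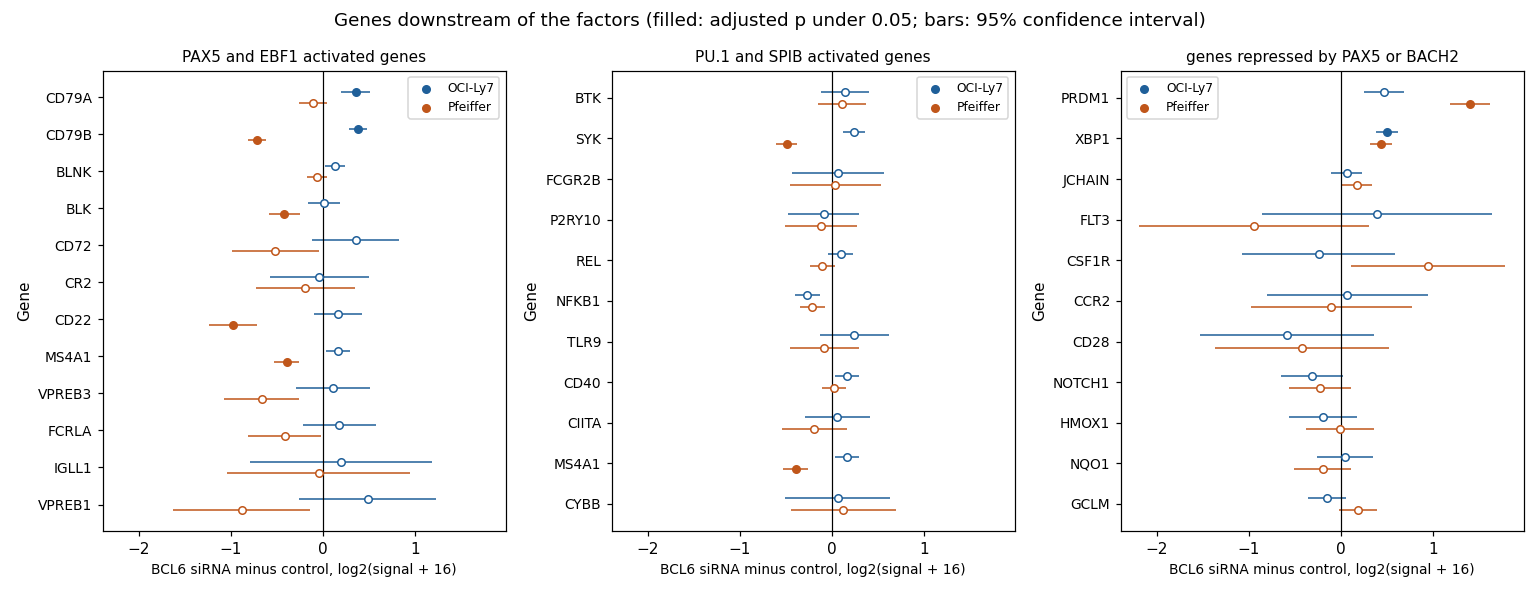
Change after BCL6 siRNA, as log2(signal + 16) with 95% confidence intervals, of genes known to be activated by PAX5 and EBF1, activated by PU.1 and SPIB, or repressed by PAX5 or BACH2, in OCI-Ly7 and Pfeiffer; filled points were called. CD79B lies at 0.38 in OCI-Ly7 and -0.72 in Pfeiffer, and PRDM1 at 1.40 in Pfeiffer is the farthest to the right of the called genes.

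For each of the 10 genes, the genes with the most similar profile were found by Pearson's r over 12 arrays after the mean of each line was subtracted, among 10943 genes above the median level. The profiles share the contrast of siRNA with control arrays, so r is a description. Each r given is among the highest of 10943 over 12 arrays, and how high noise alone would reach was not worked out. For BACH2 and MEF2C the profiles include their dim and noisy Pfeiffer values. The closest to SPIB were INPP5F, an inositol phosphatase (r = 0.993, -1.15 in Pfeiffer), and LOC100996740 (r = 0.983). For POU2F2 they were POLR1D, a subunit of RNA polymerases I and III (r = 0.979), and COTL1, an actin binding protein (r = 0.976). For IRF8 they were POLR1D again (r = 0.974) and the kinase PRKCA (r = 0.972). PAX5 was closest to RESF1 (r = 0.971) and to the interferon response gene IFIT2 (r = 0.962), which stood at 0.69 in OCI-Ly7 and -1.35 in Pfeiffer. POU2AF1 was closest to the RNA binding proteins HNRNPC (r = 0.955) and YBX1 (r = 0.946). For the genes that were not called, the 2 closest reached 0.83 to 0.93: ZCCHC18 and TEDC1 for SPI1, BTK and GPR65 for EBF1, TRIM61 and VTI1A for BACH2, CUX2 and S1PR4 for MEF2C, and DNAJC3 and CIAO2A for IKZF1.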

How the data were processed

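Total RNA of 12 cell line samples was measured on 1 array each. The authors deposited log2 values of MAS5 signals for 54675 probe sets. MAS5 and affy are named in the submitters' processing notes, with versions not given in the sources used here. Transformed back, the mean after trimming 2% at either end was 500.0 on every array, so no further scaling was done. Because mismatch signals are subtracted, dim probe sets are noisy in MAS5, and no detection calls were used. Arrays have no read depth, and their number limits the precision. Gene names came from GEO's 2016 platform annotation: 41091 probe sets had 1 symbol, 1801 several and 11721 none, and 62 were controls. Members, gene lists and named genes (all members, BCL6, the 3 lowest p per list and line, and the 2 most similar genes) were chosen with earlier results of these data known. Linear signals were turned into log2(signal + 16) and fitted with limma 3.58.1 (lmFit, eBayes with a trend, no filter on dim probe sets) on 4 group means, with 8 residual degrees of freedom, in R 4.3.3 with the package data.table (1.17.8). The fit was tested on simulated data. P-values are two-sided, and SE is limma's moderated standard error. Figures used matplotlib 3.10.9, pandas 2.3.3, numpy 2.4.6 and Python 3.11.15. Alternatives were pseudocounts of 1 and 64, quantile normalization, a filter on dim probe sets, other uses of a gene's probe sets, no trend, array weights, each line alone, a replicate block and each array left out. Same-numbered arrays did not deviate together over all probe sets with 1 symbol (correlations -0.01 to 0.01). This shows no pairing by number but, with many dim and noisy probe sets, cannot settle whether cultures were shared.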

Additional observations from a re-analysis of the deposited data

Results flagged for a closer look

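The change after BCL6 siRNA differed between the lines for 5 of the 33 probe sets, each lower in Pfeiffer than in OCI-Ly7, by limma's test of the difference itself; 1.3% of all probe sets were called in that direction. They were SPIB 205861_at (difference -1.51, adjusted p = 9.13e-06), SPIB 232739_at (-1.67, adjusted p = 0.0194), PAX5 221969_at (-0.71, adjusted p = 0.0369), POU2F2 227749_at (-0.76, adjusted p = 0.009) and POU2F2 235661_at (-1.01, adjusted p = 0.00611). In Pfeiffer these stood at -1.66, -1.25, -0.53, -0.95 and -0.98, and in OCI-Ly7 at -0.15, 0.42, 0.18, -0.19 and 0.02. Without limma's variance trend only SPIB 205861_at kept its call. The PAX5 difference was called in 10 of 20 settings. BCL6 itself fell further in Pfeiffer, with a difference of -0.54 by its brightest probe set (adjusted p = 0.0138). That call was lost without the variance trend and with the replicate block (adjusted p up to 0.201). By its other probe sets the difference was -0.80 (adjusted p = 0.0013) and -0.81 (adjusted p = 0.00137). The part of BCL6 in the differences of the 5 probe sets was not tested.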

How the results depend on the processing

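Over 11 other settings and 12 in which an array was left out, OCI-Ly7 had 0 member probe sets and 0 member genes called throughout. In Pfeiffer 9 probe sets and 5 genes were called, and 8 to 10 and 4 to 5 with an array left out. Without a variance trend the counts fell to 4 and 2, leaving both SPIB probe sets and POU2F2 227749_at and 235661_at. With a gene's probe sets averaged 3 genes were called, PAX5 and POU2AF1 no longer. For the difference between lines 5 probe sets and 3 genes were called, 3 to 6 and 2 to 4 with an array left out, 1 and 1 without a trend, and 1 gene with averaged probe sets. Between control arrays 26 and 9 were called, 23 to 27 and 7 to 9 with an array left out. Dropping _s_at, _x_at and _a_at probe sets, which can bind several transcripts, left 18 there, of fewer tested. Averaging turned the control difference of PAX5 to -0.043, that of POU2AF1 to -1.69 and the uncalled one of SPIB to 0.56, which was called (adjusted p = 0.00213). With the replicate block 8 member probe sets were called in Pfeiffer, where 229750_at of POU2F2 was lost, and 4 for the difference, where 232739_at of SPIB was lost. Gene averages give no probe set counts, and fits of each line alone give none for differences between lines. Other uncalled values near 0 also changed sign between settings and are not counted as reversals.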
